A study of Mus musculus with 16 samples.

Results

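The mouse genome carries LINE1 retrotransposons in very many near-identical copies. A bisulfite amplicon inside them therefore samples the same short row of CpGs at many loci at once. The CpGs described here are a pair of neighbours 4 bp apart in that row, at offsets of 78 and 82 bp from the first CpG of a copy, counted along the strand of the calls. A copy is a stretch of CpG sites on the same strand with gaps of at most 200 bp, built from sites with at least 10 calls in all 16 libraries. Only copies with 1 exact span from first to last CpG were kept, the span of 516 of the 753 copies (68.5%). The pair comprised 989 of 10185 tested CpG sites, 488 at offset 78 and 501 at offset 82, with 10.1% of the calls at tested sites. Both CpGs were tested in 473 copies, only offset 78 in 15 and only offset 82 in 28. The pair was picked from earlier results on these libraries because its CpGs kept very different shares of methylation in Uhrf1 KO. Levels and gaps that involve Uhrf1 KO are therefore descriptions, and no test is attached to them.

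CpG methylation is copied after replication because UHRF1 binds hemimethylated CpGs, ubiquitinates histone H3 and brings in the maintenance methyltransferase DNMT1. The ubiquitin-like (UBL) domain lies at the start of UHRF1, and F46A changes a residue in it. The RING domain lies at the other end and carries the ubiquitin ligase activity, and H730A changes a residue in it. In embryonic stem cells, LINE1 retrotransposons are among the sequences that carry CpG methylation kept in this way.

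The libraries came from J1 mouse embryonic stem cells (129S4/SvJae) cultured with serum, LIF and 2i (PD032591 plus CHIR99021). Unmodified cells (wtJ1), the Uhrf1 knockout (Uhrf1 KO) and cells with the Uhrf1 variants H730A and F46A had 4 libraries each. The series calls them biological quadruplicates. The sources used here do not say how many clones or cultures lie behind a genotype, so p-values measure the spread between these samples, which may be technical, and intervals of shares of PCR calls would cover counting error only. The amplicon holds no part of Uhrf1, and genotypes were not checked in the reads. Libraries held 998982 to 1287040 CpG calls. A site at offset 82 had a median of 61 to 78 calls per library. Calls at offset 82 were between 1.0005 and 1.0012 times those at offset 78 in copies with both, so the CpGs of the pair were read almost equally often.

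Libraries of the same genotype did not agree equally well at the pair. In chi-square tests with 1 CpG per copy, replicates 1 and 2 of wtJ1 did not differ beyond sampling noise in coverage or methylated calls at either CpG (p from 0.104 to 0.957, not adjusted). As no difference beyond sampling noise was found between them, their mean entered means and SDs as a single sample (n = 3 for wtJ1), while tests used all 4 libraries. Among Uhrf1 KO libraries 2 of 6 pairs also differed in none of these measures, replicates 2 and 3 and replicates 3 and 4, while the other 4 differed in at least 1 measure. Of the 6 pairs, 0 differed in methylated calls per copy at either CpG and 0 in summed calls at offset 78, while 2 differed in summed calls at offset 82. Replicates 1 and 4 and replicates 2 and 4 differed only in coverage. The Uhrf1 KO libraries were kept as 4 samples, so their SDs may measure sampling noise alone. Summed calls at offset 82 differed in 6 of 6 pairs of F46A libraries and in 5 of 6 pairs of H730A libraries. F46A replicate 2 was the lowest F46A library at offset 82, and H730A replicate 3 was the highest H730A library at both CpGs. Results that rest on either are given with and without it.

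The CpG at offset 78 lost nearly all of its methylation without UHRF1. Its level, the share of methylated calls over all 488 sites, was 24.7, 24.3, 25.7 and 25.4% in the wtJ1 libraries. In Uhrf1 KO it was 2.03, 2.12, 2.12 and 2.03%. H730A libraries held 4.62, 5.29, 6.67 and 4.56%, and F46A libraries 2.95, 3.12, 2.01 and 3.78%. All wtJ1 libraries lay far above the rest, the lowest H730A library exceeded the highest of Uhrf1 KO and of F46A, and F46A overlapped Uhrf1 KO through its replicate 3. As a share of the wtJ1 mean of 25.2% ± 0.605 (SD, n = 3), Uhrf1 KO kept 8.25%, F46A 11.8% and H730A 21.0%. The mean was 5.28% ± 0.979 in H730A, 2.96% ± 0.730 in F46A and 2.08% ± 0.0527 in Uhrf1 KO (SD, n = 4).

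Both point mutants were lower than wtJ1 at offset 78, and F46A was lower than H730A. The difference of H730A from wtJ1 was -19.7 percentage points, with a 95% interval of -21.1 to -17.6. That of F46A was -22.1 points, with a 95% interval of -23.7 to -20.5. F46A differed from H730A by -2.32 points (95% interval -4.66 to -0.783), with 4 of 4 F46A libraries below every H730A library. For all 3 the exact two-sided permutation test gave p = 0.0286, the smallest value possible for 4 against 4 libraries, which became 0.0343 after adjustment over the 6 level tests. Without H730A replicate 3 the difference between F46A and H730A was -1.86 points, and the exact permutation test gave p = 0.0571 (0.0686 adjusted).

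The CpG at offset 82, 4 bp further on, kept more methylation in every genotype. Its level over 501 sites was 31.004, 31.02, 31.9 and 31.97% in the wtJ1 libraries and 11.7, 12.2, 12.2 and 11.96% in Uhrf1 KO. H730A libraries held 9.04, 9.30, 11.5 and 7.97%, and F46A libraries 11.3, 7.004, 9.27 and 12.3%. Here Uhrf1 KO was the highest of the mutant genotypes in the mean. All 4 H730A libraries lay below all Uhrf1 KO libraries, while 3 of the 4 F46A libraries lay below them and 1, replicate 4, lay above them. Uhrf1 KO had a mean of 12.01% ± 0.222, H730A of 9.45% ± 1.46 and F46A of 9.97% ± 2.35 (SD, n = 4). These are 37.98, 29.9 and 31.5% of the wtJ1 mean of 31.6% ± 0.527 (SD, n = 3).

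H730A and F46A did not differ detectably at offset 82. Both lay far below wtJ1, H730A by a difference of -22.0 points (95% interval -24.0 to -19.5) and F46A by one of -21.5 points (95% interval -25.0 to -18.7). Both exact permutation tests gave p = 0.0286 (0.0343 adjusted). F46A minus H730A was 0.523 points (exact permutation p = 0.771, also after adjustment), and its 95% interval reached from -4.46 to 4.37. This interval holds the difference of -2.32 points seen at offset 78. Without F46A replicate 2 the mean difference was 1.51 points and did not pass either.

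**Figure D1:**
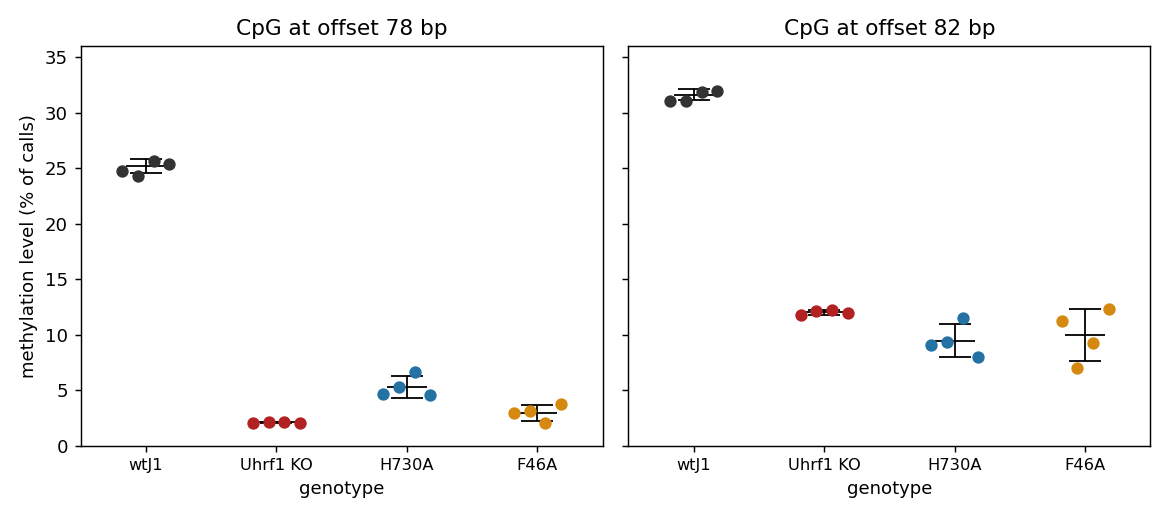
Methylation level in percent of calls at the CpG at offset 78 bp (left, 488 sites) and at offset 82 bp (right, 501 sites) by genotype. Points are the 4 libraries of each genotype, and bars are the mean and SD with wtJ1 replicates 1 and 2 counted as 1 sample. At offset 78 H730A libraries lie above Uhrf1 KO (4.56 to 6.67% against 2.03 to 2.12%), and at offset 82 they lie below it (7.97 to 11.5% against 11.7 to 12.2%).

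The genotypes thus stood in a different order at the 2 CpGs. At offset 78 the means ran from Uhrf1 KO through F46A to H730A, and at offset 82 from H730A through F46A to Uhrf1 KO. H730A was 3.21 points above Uhrf1 KO at offset 78 and 2.56 points below it (a difference of -2.56) at offset 82. F46A was 0.888 points above Uhrf1 KO at offset 78 and differed by -2.04 points at offset 82. The neighbours F46A and H730A at offset 82 did not differ beyond their spread.

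The gap between the CpGs was measured within copies, as the level at offset 82 minus that at offset 78 over the 473 copies with both. It was 6.42, 6.84, 6.24 and 6.76 points in the wtJ1 libraries and 9.60, 10.03, 10.1 and 9.84 points in Uhrf1 KO. H730A libraries had 4.48, 4.13, 4.81 and 3.47 points, and F46A libraries 8.27, 3.86, 7.22 and 8.52 points. The Uhrf1 KO gap lay above all other libraries and the H730A gap below all wtJ1 libraries. F46A was split, with replicates 1, 3 and 4 above every wtJ1 library and replicate 2 among the H730A values. The mean gap was 6.54 ± 0.268 points in wtJ1 (SD, n = 3), 4.22 ± 0.570 in H730A, 6.97 ± 2.15 in F46A and 9.89 ± 0.221 in Uhrf1 KO (SD, n = 4).

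In points, no difference in the gap between the tested genotypes passed the adjustment. H730A minus wtJ1 was -2.34 points (95% interval -3.37 to -1.44), with all 4 H730A libraries below all wtJ1 libraries (exact permutation p = 0.0286, adjusted p = 0.0857 over 3 comparisons). At the smallest exact p of 0.0286 it could pass only if a second comparison also reached it. F46A minus H730A was 2.75 points (95% interval -0.945 to 5.05, exact permutation p = 0.114, adjusted p = 0.171). F46A minus wtJ1 was 0.402 points (95% interval -2.98 to 2.28, exact permutation p = 0.8286). Without F46A replicate 2 the last 2 differences were 3.78 and 1.44 points, and both exact permutation tests gave p = 0.0286 (0.0286 adjusted).

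On a ratio scale the order of the genotypes was different and every comparison passed. The level at offset 82 was 1.26 ± 0.0147 times that at offset 78 in wtJ1 (SD, n = 3), 1.81 ± 0.111 times in H730A, 3.48 ± 0.994 times in F46A and 5.77 ± 0.0373 times in Uhrf1 KO (SD, n = 4). Libraries ranged from 1.24 to 1.28 in wtJ1, 1.72 to 1.97 in H730A, 2.23 to 4.60 in F46A and 5.72 to 5.81 in Uhrf1 KO, so no 2 genotypes overlapped. On the log2 scale H730A minus wtJ1 was 0.52 (95% interval 0.43 to 0.67), F46A minus wtJ1 was 1.42 (0.80 to 1.89) and F46A minus H730A was 0.90 (0.18 to 1.42). The exact permutation test gave p = 0.0286 for all 3, also after adjustment. Leaving out any 1 H730A library brought F46A minus H730A to p = 0.0571 in the exact permutation test, at differences of 0.87 to 0.94, a check added after the data were seen. H730A thus had a smaller gap than wtJ1 in points and a larger one as a ratio. The gap in points was the main test, and the ratio is an alternative scale. It rests on the level at offset 78, which was only 2.01 to 3.76% in the F46A libraries over these copies. F46A and H730A differed in that level, while at offset 82 they did not differ detectably. Incomplete conversion could not be estimated.

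**Figure D2:**
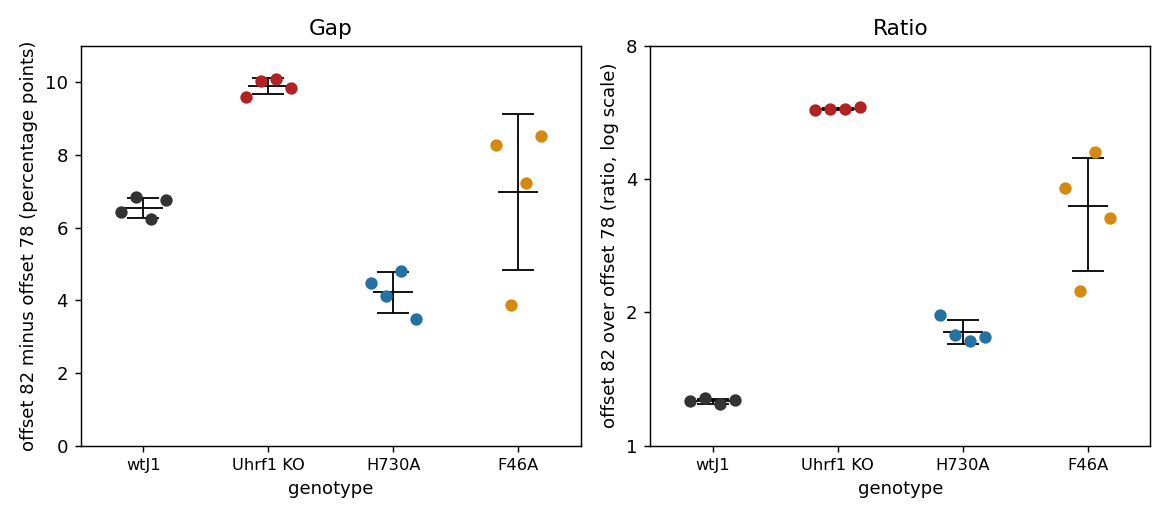
Gap between the CpGs in percentage points (left) and ratio of the level at offset 82 to that at offset 78 on a log axis (right), over the 473 copies with both CpGs. Points are libraries, and bars are the mean and SD with wtJ1 replicates 1 and 2 counted as 1 sample. F46A replicate 2 has a gap of 3.86 points, while the other F46A libraries lie between 7.22 and 8.52 points.

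Among the 14 CpG offsets found in more than 100 of these copies, offset 82 had the highest level in Uhrf1 KO and in F46A and the fourth highest in wtJ1 and H730A. Offset 78 ranked 7 in wtJ1, 12 in H730A, 11 in F46A and 12 in Uhrf1 KO. In share of the wtJ1 level, offset 82 ranked 2 in Uhrf1 KO and in F46A, behind offset 45, and 7 in H730A. Offset 78 ranked 11, 12 and 13 in Uhrf1 KO, F46A and H730A. Ranks of neighbouring offsets were not tested.

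Among these offsets 2 more pairs of CpGs lie 4 bp apart, at 17 and 21 and at 41 and 45. Another pair of neighbours, further along than offset 82, lies closer together than 4 bp. Its first CpG had 24.7, 6.42, 6.62 and 7.69% in wtJ1, H730A, F46A and Uhrf1 KO, and its second 33.5, 14.5, 7.45 and 3.18%. The H730A mean was below Uhrf1 KO at the first, within the H730A SD of 1.55 points, and above it at the second. This change of order in the means was thus not confined to offsets 78 and 82, and it was not tested. At offsets 17 and 21 the levels were 10.7 and 21.9% in wtJ1, 3.12 and 6.27% in H730A, 2.39 and 4.25% in F46A and 2.52 and 3.90% in Uhrf1 KO, and their gap was not tested. The pair at 41 and 45 was set beside the pair at 78 and 82 in a test chosen after the data were seen. Over the 380 copies with all 4 CpGs, the level at offset 45 minus that at offset 41 was -11.7 ± 0.0251 points in wtJ1 (SD, n = 3), -1.21 ± 1.45 in H730A, -0.177 ± 1.92 in F46A and -0.791 ± 0.0278 in Uhrf1 KO (SD, n = 4). The single wtJ1 libraries ranged from -12.2 to -11.1 points. The wtJ1 SD understates this spread, as it counts replicates 1 and 2 as 1 sample. These replicates were compared only at offsets 78 and 82. In these copies the gap of the pair at 78 and 82 was 6.47, 4.10, 6.99 and 9.86 points in the same order. In points, the distance between the CpGs at 41 and 45 was thus smaller in Uhrf1 KO than in wtJ1, and that at 78 and 82 was larger. The difference between the pairs' gaps fell by 12.9 points from wtJ1 to H730A and by 11.04 points from wtJ1 to F46A (exact permutation p = 0.0286 each, adjusted p = 0.0429 over 3 comparisons). F46A and H730A differed by 1.85 points in it (95% interval -6.93 to 6.04, exact permutation p = 0.400). The fall from wtJ1 to F46A lay wholly in the pair at 41 and 45, and the fall to H730A mostly in that pair.

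**Figure D3:**
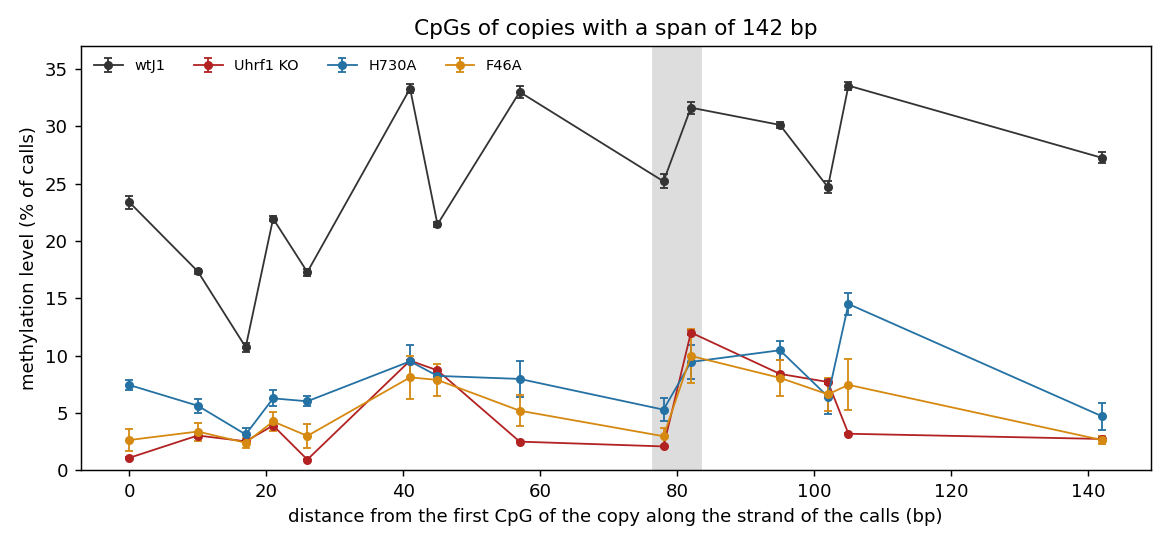
Methylation level in percent of calls by distance from the first CpG in bp, for CpGs found in more than 100 of the 516 copies. Points are genotype means and bars are SDs (n = 3 for wtJ1, n = 4 for the others), and the shaded band holds offsets 78 and 82. Uhrf1 KO goes from 2.08% at offset 78 to 12.01% at offset 82, its highest CpG.

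Site by site, nearly every member was lower than wtJ1 in both point mutants. When a quasi-binomial model (dispersion moderated by limma) was fitted at each of the 10185 sites, 482 of 488 sites at offset 78 and 483 of 501 at offset 82 were lower in H730A (adjusted p under 0.05), against 91.4% of all tested sites. In F46A 487 and 490 were lower, against 94.5% of all tested sites. In Uhrf1 KO 486 and 481 were lower, against 94.2%, which the choice of the pair already used. The model called 0 members higher than wtJ1 in H730A or F46A, against 0.0196% of all tested sites in each, and 0 in Uhrf1 KO, against 0.0%. At an unadjusted p under 0.05, with limma on logit values and with Fisher's exact test the number was also 0. The median difference from wtJ1 at offset 78 was -19.4 points in H730A and -21.6 in F46A, and at offset 82 it was -22.2 and -21.3 points. Over all tested sites the medians were -17.5 and -19.7 points.

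Between the point mutants the number of members called depended on the test. The same model called 7 of 488 sites at offset 78 and 1 of 501 at offset 82 lower in F46A than in H730A, against 2.39% of all tested sites, so the members' shares of 1.43 and 0.200% lay below the background. At offset 78 the number lower was 31 of 380 sites with a minimum of 30 calls, 81 of 488 by Fisher's exact test and 0 by limma on logit values, and at offset 82 it was 1 of 387, 4 and 0. The model called 0 members higher, against 0.00982% of all tested sites, where limma on logit values also gave 0 and Fisher's exact test 12 at offset 82. Fisher's exact test sums the calls of the 4 libraries of a genotype and ignores the spread between them. In F46A the libraries reached from 7.004 to 12.3% at offset 82. At an unadjusted p under 0.05, 121 sites at offset 78 were lower and 1 higher in F46A, while at offset 82 10 were lower and 18 higher. The median difference was -2.33 points at offset 78, 0.344 at offset 82 and -1.88 over all tested sites. F46A lay above H730A at 66 of 488 sites at offset 78 and at 280 of 501 at offset 82. A share of all tested sites is given here only for the model's adjusted calls at all 10185 sites. Nothing is therefore read about the members from counts under other tests or thresholds, or from these numbers of sites. The count of 7 fell to 1 without F46A replicate 2 and to 0 without any 1 of the other 7 libraries, and the count of 1 fell to 0 without any 1 library.

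The site counts against Uhrf1 KO are given as descriptions. For H730A the model called 129 of 488 sites at offset 78 higher and 0 lower, and 38 of 501 at offset 82 lower and 0 higher. At an unadjusted p under 0.05, 1 site at offset 78 was lower and 4 at offset 82 were higher, and at offset 82 limma on logit values called 1 higher and Fisher's exact test 4. The background was 21.4% of all tested sites higher and 0.785% lower, and nothing is read from these counts because values of Uhrf1 KO chose the pair. The count of 129 was 62 without H730A replicate 3 and 84, 82, 78 and 81 without Uhrf1 KO replicates 1, 2, 3 and 4. The count of 38 was 17, 21 and 14 without H730A replicates 1, 2 and 4, and 23, 17 and 20 without Uhrf1 KO replicates 2, 3 and 4. In F46A 0 members were called, with 37 sites at offset 78 higher and 3 lower and 31 at offset 82 lower and 0 higher at an unadjusted p under 0.05. limma on logit values called 0 members there, and Fisher's exact test called 9 higher at offset 78 and 8 lower at offset 82. The background of calls in F46A against Uhrf1 KO was 0.0% in each direction.

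The gap had the same sign in most single copies. With calls summed over the 4 libraries of a genotype, offset 82 was above offset 78 in 440 of 473 copies in wtJ1, 449 in H730A, 470 in F46A and 472 in Uhrf1 KO. In a single library the count was 367 to 384 in wtJ1, 362 to 392 in H730A, 364 to 459 in F46A and 457 to 465 in Uhrf1 KO. The quartiles of the gap ran from 3.97 to 8.73 points in wtJ1, 2.68 to 5.80 in H730A, 5.61 to 8.36 in F46A and 8.25 to 11.5 in Uhrf1 KO, with medians of 6.46, 4.02, 7.0 and 9.92 points in the same order. The gap was smaller in H730A than in wtJ1 in 331 of 473 copies, larger in F46A than in H730A in 400, and larger in Uhrf1 KO than in wtJ1 in 376. Copies share libraries, so these counts describe how widely the pattern spread and are not tests.

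Copies differed more at offset 82 than at offset 78 in the mutants, in points. The SD between sites at offset 78 was 7.77 points in wtJ1, 2.85 in H730A, 1.36 in F46A and 1.13 in Uhrf1 KO, where counting error alone gives 2.88, 1.51, 1.15 and 0.916 points. At offset 82 it was 7.50, 3.68, 2.83 and 3.28 points in the same order, against 3.10, 1.97, 2.03 and 2.09 from counting error. In points, the sites at offset 78 in Uhrf1 KO and F46A therefore spread little beyond counting error. Their means were 2.08 and 2.96%, against 25.2% in wtJ1, and spread relative to the level was not compared. In Uhrf1 KO 15 of 488 sites at offset 78 had no methylated call and 0 of 501 at offset 82. The levels at the CpGs of a copy were correlated across the 473 copies with Pearson r of 0.81 in wtJ1, 0.67 in H730A, 0.47 in F46A and 0.35 in Uhrf1 KO. The copies share libraries, and both CpGs of a copy had nearly the same number of calls. Counting error lowers r most where it makes up much of the spread, as in F46A and Uhrf1 KO. The r values are therefore not comparable between genotypes, and no change of the link between the CpGs was tested.

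**Figure D4:**
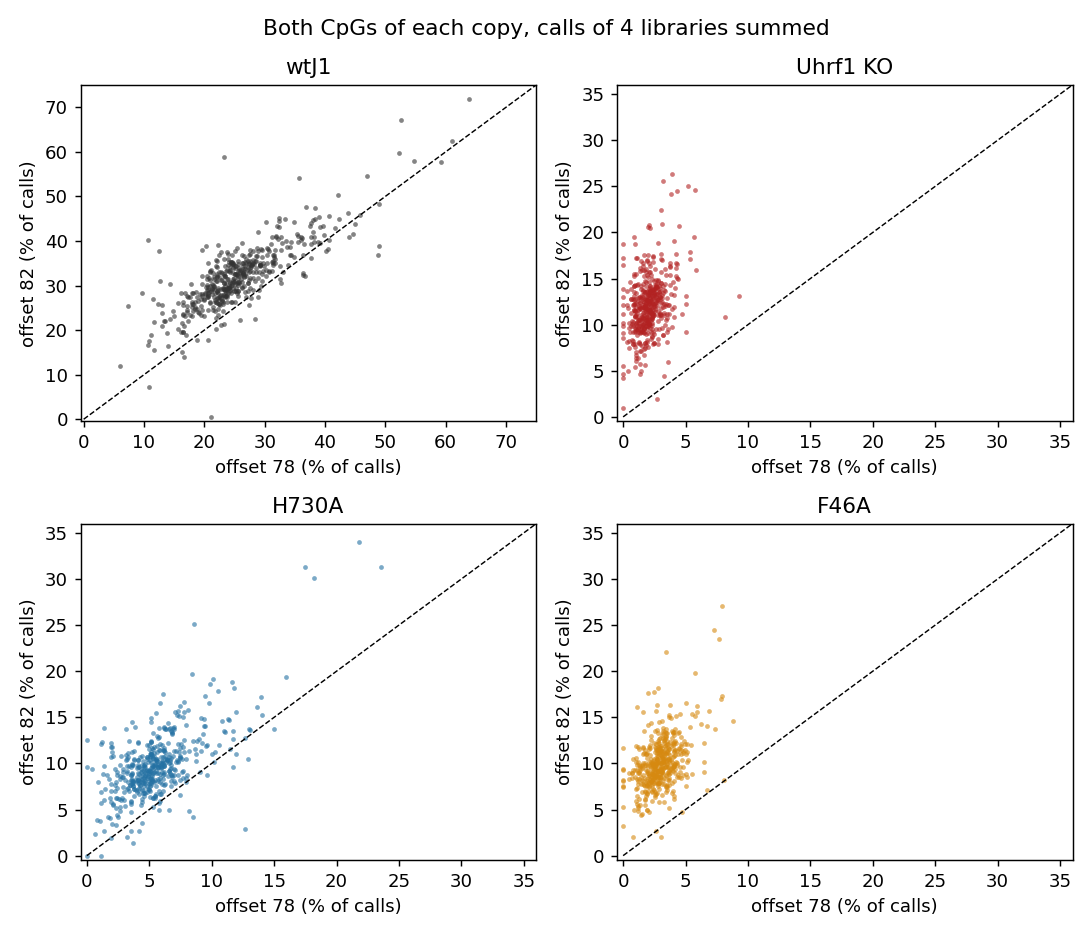
Level at offset 82 against level at offset 78 in percent of calls, with 1 point for each of the 473 copies with both CpGs and calls of 4 libraries summed. The dashed line marks equal levels, and the wtJ1 axes run further than the others. Points lie above the line in 440 copies in wtJ1, 449 in H730A, 470 in F46A and 472 in Uhrf1 KO.

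Copies with more methylation elsewhere had more at both CpGs of the pair. The copies were split into 4 classes by their wtJ1 level at all their other CpGs, from 11.03 to 22.6% in the lowest class of 119 copies to 28.2 to 59.2% in the highest of 118. From the lowest to the highest class offset 78 went from 19.9% ± 0.595 to 33.5% ± 0.651 in wtJ1 (SD, n = 3), from 4.31% ± 0.770 to 7.64% ± 1.48 in H730A, from 2.45% ± 0.660 to 3.73% ± 0.890 in F46A and from 1.82% ± 0.128 to 2.52% ± 0.230 in Uhrf1 KO (SD, n = 4). Offset 82 went from 25.98% ± 0.397 to 39.4% ± 0.568 in wtJ1, from 7.93% ± 1.49 to 12.4% ± 1.42 in H730A, from 8.59% ± 2.09 to 11.8% ± 2.63 in F46A and from 10.5% ± 0.269 to 13.7% ± 0.426 in Uhrf1 KO. The gap went from 8.73 ± 0.373 to 11.2 ± 0.317 points in Uhrf1 KO and was 6.06 ± 0.325 and 5.96 ± 0.495 points in wtJ1. The ratio of the means at the CpGs stayed between 5.45 and 6.04 in Uhrf1 KO, 3.17 and 3.51 in F46A, 1.62 and 1.89 in H730A and 1.18 and 1.30 in wtJ1 over the 4 classes.

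**Figure D5:**
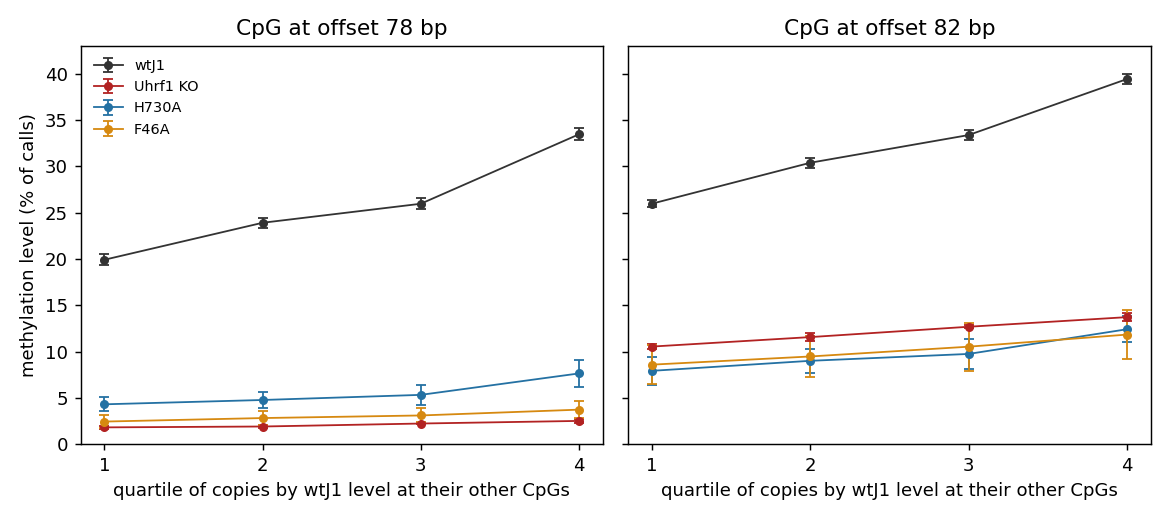
Methylation level in percent of calls at offset 78 (left) and offset 82 (right) in 4 classes of copies, ordered by their wtJ1 level at the other CpGs of the copy. Points are genotype means and bars are SDs (n = 3 for wtJ1, n = 4 for the others). At offset 78 H730A lies above Uhrf1 KO in every class, and at offset 82 its mean lies below that of Uhrf1 KO in every class.

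The order of the genotype means in the gap was the same inside and outside genes, on the X chromosome and autosomes, and on both strands. All these classes hold the same 16 libraries. In each of them F46A and wtJ1, neighbours in this order, differed by less than the SD of F46A. In the 121 copies inside the span of an annotated gene the gap was 6.20 ± 0.393 points in wtJ1, 4.12 ± 0.644 in H730A, 6.72 ± 2.04 in F46A and 9.86 ± 0.312 in Uhrf1 KO. In the 352 copies outside genes it was 6.68 ± 0.227, 4.26 ± 0.550, 7.07 ± 2.19 and 9.90 ± 0.257 points in the same order (SDs over 3 samples of wtJ1 and 4 of the others). The 66 copies on the X chromosome had 6.62, 4.06, 6.78 and 9.90 points, against 6.53, 4.24, 6.99 and 9.89 on autosomes. Copies on the plus and minus strands had 6.35 and 6.80 points in wtJ1, 4.31 and 4.10 in H730A, 7.02 and 6.90 in F46A and 9.88 and 9.90 in Uhrf1 KO. The largest of these differences in wtJ1, outside against inside genes, was smaller than the sum of the SDs of the 2 classes, and none was tested.

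Some copies carried only 1 CpG of the pair in the files. At the 27 sites at offset 82 whose partner was listed in no library, calls were methylated at 27.8% ± 0.937 in wtJ1 (SD, n = 3), 8.62% ± 1.88 in H730A, 10.6% ± 2.57 in F46A and 12.6% ± 0.322 in Uhrf1 KO (SD, n = 4). With the partner tested these were 31.8% ± 0.513, 9.50% ± 1.44, 9.93% ± 2.33 and 11.96% ± 0.262. At the 15 sites at offset 78 without a listed partner the levels were 19.9% ± 1.16, 5.43% ± 0.794, 3.32% ± 1.18 and 2.21% ± 0.608 in the same order, against 25.3, 5.28, 2.96 and 2.07% at the paired sites. In wtJ1 each CpG was thus lower where its neighbour was not listed, and in the mutants the means with and without it lay within 1 percentage point of each other. The mutant levels are far lower than those of wtJ1, and differences relative to the level were not compared. These sets were not tested against each other. The cells are of a 129 background and the coordinates are those of mm10, and whether the copies in these cells hold the same CpGs as the reference was not tested. Members with a lowest coverage of 10 to 12 calls had 25.0, 4.63, 3.46 and 1.34% at offset 78 (14 sites) and 30.1, 9.28, 9.95 and 11.1% at offset 82 (15 sites) in wtJ1, H730A, F46A and Uhrf1 KO. Just outside the minimum, with a lowest coverage of 7 to 9 calls, there was 1 site at offset 78, at 40.3, 18.5, 6.56 and 1.82% from 55 to 67 calls per genotype, and 0 at offset 82.

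The 6 copies with the deepest coverage of both CpGs, which are among the members, showed the same order of genotype means as all members together. The deepest lies at chr2:42083590-42083732 (mm10, plus strand) in the span of Lrp1b, a very large lipoprotein receptor family gene, with 1755 to 2358 calls per library at each CpG. Its CpG at offset 78 (position 42083668) was at 24.2% ± 0.304 in wtJ1 (SD, n = 3), 4.65% ± 0.544 in H730A, 2.94% ± 0.486 in F46A and 1.85% ± 0.110 in Uhrf1 KO (SD, n = 4). Its CpG at offset 82 (position 42083672) was at 30.6% ± 0.250, 8.90% ± 1.62, 9.49% ± 2.71 and 11.97% ± 0.495 in the same order. F46A was called lower than H730A at the first (adjusted p = 0.0348 in the quasi-binomial model with limma) and not at the second (adjusted p = 0.784), and the call was lost without any 1 library. How reads of near-identical copies were placed is not stated in the labels, so the assignment to this copy is uncertain, as it is for each copy named here.

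The other 5 deepest copies lie outside annotated genes, with 426 to 638 calls per library. At chr4:122712883-122713025 (minus strand) Uhrf1 KO had 2.05% ± 0.798 at offset 78 and 10.1% ± 1.14 at offset 82, and H730A 5.17% ± 0.596 and 9.07% ± 1.82. At chr4:90980423-90980565 Uhrf1 KO had 1.68% ± 0.474 and 10.2% ± 0.940, and H730A 5.03% ± 1.23 and 7.54% ± 1.79. At chr11:45770734-45770876 Uhrf1 KO had 2.00% ± 0.410 and 12.2% ± 0.851, and H730A 6.15% ± 0.905 and 9.72% ± 2.11. At chr4:17409310-17409452 Uhrf1 KO had 2.14% ± 0.445 and 12.5% ± 2.07, and H730A 5.13% ± 0.994 and 10.1% ± 1.88. At chr10:45517062-45517204 Uhrf1 KO had 2.58% ± 0.765 and 14.3% ± 0.715, and H730A 6.04% ± 2.68 and 9.02% ± 0.787 (SD, n = 4 throughout). F46A means in these 5 copies were 2.42 to 4.09% at offset 78 and 8.81 to 11.3% at offset 82. In all 6 copies the H730A mean was above Uhrf1 KO at offset 78 and below it at offset 82. Values of Uhrf1 KO chose the pair, and these copies weigh heavily in the levels over all members. This order is therefore a description and gives no separate support.

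The sites with the largest called differences between F46A and H730A had high wild-type levels. They were picked by the size of the difference in points, which favours sites with high levels, so nothing is read from those levels. At chr1:150233137-150233279 (outside annotated genes) the CpG at offset 82 held 57.9% ± 1.40 in wtJ1 (SD, n = 3), 31.3% ± 5.51 in H730A, 13.0% ± 2.19 in F46A and 19.9% ± 12.4 in Uhrf1 KO (SD, n = 4). F46A minus H730A was -18.3 points there (adjusted p = 0.0380, quasi-binomial model with limma). Its neighbour at offset 78 was at 59.9% ± 3.45, 17.4% ± 5.45, 4.71% ± 2.13 and 5.47% ± 4.0004 in the same order. At chr2:23940078-23940220 the CpG at offset 78 was at 62.1% ± 9.12, 22.6% ± 6.39, 7.59% ± 3.27 and 3.88% ± 1.84. At chr3:91126964-91127106 it was at 36.7% ± 5.67, 15.5% ± 6.46, 2.76% ± 1.92 and 0.368% ± 0.735. These calls had 43 to 77 calls per library behind them, and none was kept when any 1 library was left out. The other 4 called sites, all at offset 78 and named after their values were seen, were in the copies at chr5:95711761-95711903, chr11:45770734-45770876, chr12:23466493-23466635 and in Lrp1b, with differences of -5.86, -3.69, -3.31 and -1.70 points.

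A few copies stood apart and are named after their values were seen. The CpG at offset 82 in the copy at chr9:87161529-87161671, in the span of Mrap2, which encodes a melanocortin receptor accessory protein, had 1 methylated call of 175 in wtJ1 (0.571%). It had 3 of 217 in H730A, 4 of 197 in F46A and 2 of 212 in Uhrf1 KO, and it was the 1 member with a level above wtJ1 in each mutant, although neither H730A nor F46A was called there. Its neighbour at offset 78 had 37 methylated calls of 175 in wtJ1 (21.1%), so this was the copy with the most reversed gap in wild type, at -20.6 points. The copy at chr2:84195047-84195189 was the 1 copy with offset 78 above offset 82 in Uhrf1 KO, with 7 of 258 against 5 of 259 methylated calls. Its levels were low in wtJ1 as well, at 10.9 and 7.27%. In H730A 2 sites at offset 82 had 0 methylated calls, in the copy at chr6:82625754-82625896 in the span of Pole4 (0 of 78) and at chrX:110417137-110417279 (0 of 86). At offset 78 there were 3 such sites in H730A, among them the neighbour in the Pole4 copy (0 of 78).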

How the data were processed

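Per the file headers, every deposited file holds, for the CpG sites of 1 library, a methylated count (calls of C) and a total count (calls of C plus T). The authors' ratio column is the fraction of the first in the second. Genomic DNA was bisulfite converted and amplified with LINE1 primers, per the labels' protocols. The submitters' processing notes name mm10, BSMAP 2.90, Trim Galore 0.3.1 and methylKit, with no roles. Files hold CpG context alone, so conversion could not be estimated, and PCR calls carry no molecular identifiers.

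Counts were used as deposited, with a minimum of 10 calls in all 16 libraries (10185 of 49722 listed sites). Levels are methylated calls over calls, summed over members. Group means were compared by exact two-sided permutation tests, with intervals (95%) from inverting them and Benjamini-Hochberg adjustment over 6 level tests and 3 gap tests. The site model was quasi-binomial on 8 libraries, with Pearson dispersion moderated by limma 3.58.1 (R 4.3.3) and not below 1, adjusted at 0.05 over all sites, and was tested on simulated data. Its median was 1, or 1.04 between the point mutants, so counting error sets many of the p-values per site. Genes came from RefSeq GRCm38.p6 by span. Genome sequence was not used here.

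The named copies are the 6 with the highest lowest coverage of both CpGs, and up to 3 sites per CpG with the largest called difference between F46A and H730A, at least 30 calls and no overlap of libraries. Members, rules and lists were chosen with earlier results of these data known. Alternatives were minimums of 30 and 100 calls, unweighted means, single strands, removal of the 10 deepest copies, the commonest CpG pattern, copies with both CpGs, log2 ratio and odds ratio, wtJ1 replicates 1 and 2 as 1 sample, the replicate number as a block, each library left out, limma on logit values (offset 0.5) and Fisher's exact test. The last used calls summed over the libraries of a genotype and so ignores the spread between libraries.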

Additional observations from a re-analysis of the deposited data

Results flagged for a closer look

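Of 80 groups of 4 libraries examined, 2 held a library far from the other 3 by Dixon's criterion, where chance gives about 1 in 20. At chr4:17409392, a CpG at offset 82, H730A replicate 4 had 7.35% (36 of 490 calls), while replicates 1 to 3 had 10.7, 11.04 and 11.4%. At chr3:91127042, a CpG at offset 78, Uhrf1 KO replicate 3 had 1.47%, which is 1 methylated call of 68, while the other libraries had 0 of 73, 0 of 49 and 0 of 55 calls, which allow shares of up to 4.11, 6.12 and 5.45%.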

How the results depend on the processing

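The lower levels of H730A and F46A than wtJ1 at both CpGs and of F46A than H730A at offset 78 kept their direction under all settings, and passed except with the replicate block and, for F46A against H730A, without H730A replicate 3. With the replicate number as a block (exact sign-flip permutation) the differences were -19.7, -22.1 and -2.32 points at offset 78 and -22.0 and -21.5 at offset 82, with an adjusted p of 0.15 each. The smallest p that 4 pairs allow is above 0.05. Deviations of same-numbered libraries from their group means were not correlated across sites (correlations from -0.0370 to 0.0285 in 24 pairs, 0 over 0.1). A shift of all sites of a library alike does not enter these correlations. Whether same-numbered libraries share such a shift was therefore not tested. The gap of H730A minus wtJ1, -2.34 points, was 0.52 as a log2 ratio and 0.45 as a log2 odds ratio. F46A minus wtJ1 was 1.42 and 1.39 on these scales and F46A minus H730A 0.90 and 0.94, all passing. A ratio divides by the level at offset 78, which differs between genotypes.

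Uhrf1 KO minus wtJ1 at offset 78 was -22.1 with a minimum of 100 calls, -23.5 with unweighted means and -23.6 with the commonest CpG pattern. At offset 82 it was -18.8 with 100 calls, -19.0 and -20.1 on the plus and minus strands and -20.6 with the commonest pattern. Its gap was 2.99, 3.73 and 2.97 points with 100 calls, unweighted means and the commonest pattern. The cause was not tested. With 1 library left out, ranges in points were -20.2 to -19.5 for H730A minus wtJ1, -22.3 to -21.7 for F46A minus wtJ1 and -2.59 to -1.86 for F46A minus H730A at offset 78. At offset 82 they were -22.7 to -21.5, -22.3 to -20.5 and -0.267 to 1.51. For the gap they were -2.54 to -2.10, -0.116 to 1.44 and 2.23 to 3.78.

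For F46A against H730A, sites lower at offset 78 numbered 31 with a minimum of 30 calls, 81 by Fisher's exact test, and 0 with the replicate block or by limma on logit values, and 0 to 1 with 1 library left out. At offset 82, Fisher's test gave 4 lower and 12 higher and a minimum of 30 calls 1 higher. The replicate block, limma and each left-out library gave 0 lower. For H730A against Uhrf1 KO the block gave 0 calls at either CpG. Sites lower at offset 82 were 20 by limma, 78 by Fisher's test and 14 to 37 with 1 library left out. Sites higher there were 3 with 30 calls, 1 by limma and 4 by Fisher's test. Sites higher at offset 78 were 62 to 109 with 1 library left out. For F46A against Uhrf1 KO, a minimum of 30 calls gave 4 higher at offset 78 and 1 lower at offset 82, and Fisher's test 9 and 8. For single named sites, 59 of the alternative values for F46A minus H730A lost the call and 6 gained it. Shares of all tested sites under these settings are not given, so the counts describe how the calls moved and nothing more. The cause of these moves was not tested.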
